A study of Mus musculus with 9 samples.

Results

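A set of 10 genes of the NF-kappaB pathway was followed in RNA that was recovered with Argonaute (AGO) from cultured mouse T cells. They were 4 subunits of the transcription factor (Rel, Rela, Relb and Nfkb2), 3 inhibitors (Nfkbia, Nfkbie and Tnfaip3), and 3 adaptors or kinases that signal to it (Traf6, Irak1 and Irak2). The genes were chosen by name, as parts of the pathway or as reported targets of the microRNA miR-146a (Traf6, Irak1, Irak2 and Relb). They are 10 of the 18193 genes that the arrays measured with a probe set assigned to a single gene, and 24 of 34945 such probe sets.

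The T cells came from C57BL/6 mice and were kept for 24 h in 1 of 3 cultures, each with 3 arrays numbered as biological replicates 1 to 3. In allogeneic culture they met dendritic cells of BALB/c mice, a strain with other histocompatibility molecules, at 20 T cells per dendritic cell. In the second culture no dendritic cells are named, and antibodies to CD3e and CD28, each at 0.1 µg/ml, engaged the T cell receptor and its co-stimulatory partner. In syngeneic culture, the baseline, the dendritic cells were C57BL/6 too and the ratio was again 20 to 1. All T cells were repurified by negative magnetic selection and crosslinked with ultraviolet light, and AGO with its bound RNA was immunoprecipitated. The RNA that came down with AGO was amplified, labelled and read on expression arrays.

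NF-kappaB is a family of dimers that sit in the cytoplasm while inhibitory proteins of the IkappaB family cover them. Signals from antigen receptors or innate receptors lead to the loss of the inhibitor, the dimer enters the nucleus, and among the genes it then drives are those of its own inhibitors. Among its products is miR-146a, a microRNA reported to hold back the adaptor TRAF6 and the kinase IRAK1 and known in T cells as a brake on the same pathway. AGO binds microRNAs and, through them, their target transcripts, so an AGO-bound level depends both on how much of a transcript is present and on how much of it is bound. Arrays of input RNA were not used here, and these quantities were therefore not separated.

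The mature sequences of miR-146a and of its close relative miR-146b are shown because the choice of 4 members rests on this microRNA. Letters run 5′ to 3′, the seed (bases 2 to 8) is in capitals, and the sequences are those of RefSeq on GRCm38.p6.
mmu-miR-146a-5p: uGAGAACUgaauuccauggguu
mmu-miR-146b-5p: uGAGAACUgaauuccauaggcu
miR-146a-5p lies at chr11:43374435-43374456 on the minus strand and miR-146b-5p at chr19:46342790-46342811 on the plus strand. They are identical at 20 of 22 positions, and of 1679 mature mouse microRNAs in the table only these 2 carry that seed. The level of the microRNA itself was not analysed here.

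The windows of 3 promoters are shown because the 2 IkappaB genes and Nfkb2 are, with Relb, the members that differed by over 0.2 (log2) in the same direction in all 3 replicate numbers of at least 1 comparison, as described further on. No window was used for Relb. Each window holds the 250 bases before and the 50 after an annotated start, written 5′ to 3′ on the gene's strand, and capitals mark matches to the kappaB consensus decamer, searched on both strands with overlapping matches merged into 1 run.
Nfkbia: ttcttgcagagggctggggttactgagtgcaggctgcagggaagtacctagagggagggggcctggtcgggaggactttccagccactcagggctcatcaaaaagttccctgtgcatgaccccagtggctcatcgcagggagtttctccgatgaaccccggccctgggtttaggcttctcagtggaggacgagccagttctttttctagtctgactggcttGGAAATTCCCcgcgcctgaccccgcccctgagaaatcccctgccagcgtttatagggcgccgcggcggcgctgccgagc
Nfkbie: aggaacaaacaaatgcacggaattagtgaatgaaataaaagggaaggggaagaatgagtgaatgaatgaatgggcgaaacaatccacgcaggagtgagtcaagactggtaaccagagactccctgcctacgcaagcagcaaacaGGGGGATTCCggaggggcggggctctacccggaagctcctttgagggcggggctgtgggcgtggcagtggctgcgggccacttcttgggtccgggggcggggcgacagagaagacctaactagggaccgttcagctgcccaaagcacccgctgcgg
Nfkb2: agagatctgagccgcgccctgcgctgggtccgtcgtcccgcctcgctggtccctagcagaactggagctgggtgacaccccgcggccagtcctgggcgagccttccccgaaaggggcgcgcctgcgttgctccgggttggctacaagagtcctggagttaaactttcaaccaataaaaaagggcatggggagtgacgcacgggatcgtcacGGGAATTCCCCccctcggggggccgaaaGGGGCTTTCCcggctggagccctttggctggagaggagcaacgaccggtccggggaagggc
On GRCm38.p6 the Nfkbia window is chr12:55492598-55492897 (minus strand), the Nfkbie window chr17:45555450-45555749 (plus strand) and the Nfkb2 window chr19:46304487-46304786 (plus strand). The Nfkbia match begins 29 bases before the start and the Nfkbie match 106 bases before it. The Nfkb2 window holds a run of overlapping matches from 39 bases before the start and a further match from 11 bases before it. A match was found for 5 of the 9 members with a window (Rel, Nfkb2, Nfkbia, Nfkbie and Tnfaip3), and in 7 of their 13 windows. Among all mouse promoters of the same length, 1480 of 32851 windows held a match (4.505%). By gene, 1388 of 27025 had a match in any window (5.136%). Some Nfkb2 windows overlap and share a match, so the windows are not separate counts. A match describes the letters of these windows and is not a measured binding site.

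Values are log2 signals as the authors deposited them, so a difference of 1 is 2 times the signal, and each gene is given by its brightest probe set. Signals of different probe sets are not compared with each other. All 11 T cell marker genes were above the array median on all 9 arrays. The arrays were set apart more by replicate number than by culture: over all genes, a median of 92.7% of the variance lay between numbers and 2.08% between cultures. Many genes had exactly equal values on arrays of the same number, from 17.9% to 49.0% of genes in a pair of arrays, so an equal value need not be a measured lack of difference. The allogeneic and anti-CD3/CD28 arrays of number 1 were nearly alike, with 49.0% of genes equal and an SD of only 0.103 log2 between them, against 0.493 in number 2 and 0.680 in number 3. Some counts of members with a common direction are therefore also given for numbers 2 and 3 alone. These are members lower in anti-CD3/CD28 than in syngeneic culture, and members higher in allogeneic than in anti-CD3/CD28 culture. Other results that combine the numbers keep number 1, except where arrays or numbers are left out in the section on processing.

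In limma with Benjamini-Hochberg adjustment over all 18193 genes at a threshold of 0.05, no gene was called in any of the 3 comparisons (0%), either without or with the replicate number as a block. At an unadjusted p under 0.05 the fit with the block counted 825 genes for allogeneic against syngeneic culture, 1236 for anti-CD3/CD28 against syngeneic culture and 205 for allogeneic against anti-CD3/CD28 culture. Without the block the counts were 27, 156 and 24. With the number as a random block, limma called 1, 30 and 0 genes, none of them a member, and the smallest adjusted p of a member was 0.0684, for Nfkbia in anti-CD3/CD28 against syngeneic culture. The groups overlapped for every member in every comparison. The labels name no animals or cultures behind the replicates, so these p-values measure the spread between the arrays, which may be in part technical. What follows is therefore a description of levels and of differences within each replicate number, and "lower" or "higher" is not a call.

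**Figure D1:**
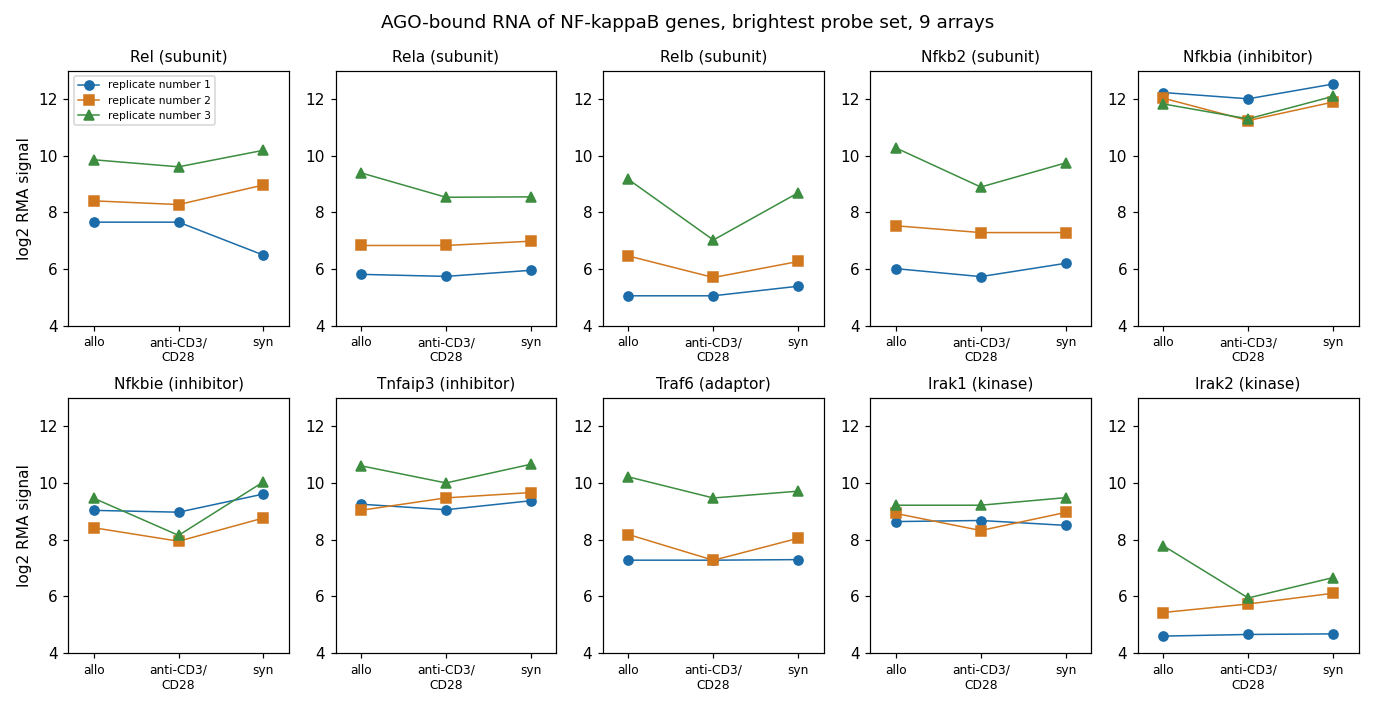
Log2 signal (y axis) of the brightest probe set of each of the 10 genes in allogeneic (allo), anti-CD3/CD28 and syngeneic (syn) culture (x axis). Each point is 1 array and lines join arrays of the same replicate number. The lines of Nfkbia and Nfkbie dip at anti-CD3/CD28 culture in all 3 numbers, while Rela, Relb, Nfkb2 and Traf6 are spread mainly by number.

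The subunits are the proteins that bind DNA or, for Nfkb2, the precursor of one that does. Rel encodes c-Rel, the subunit best known from activated lymphocytes. Its signal was 7.66, 8.41 and 9.86 in allogeneic replicates 1 to 3, 7.66, 8.28 and 9.61 in anti-CD3/CD28 replicates, and 6.49, 8.97 and 10.19 in syngeneic replicates. Number 1 thus went against the others. In anti-CD3/CD28 against syngeneic culture the Rel difference was 1.16 in number 1, −0.69 in number 2 and −0.58 in number 3, with a mean of −0.04 ± 0.92 (SE). In allogeneic against syngeneic culture it was 1.16, −0.56 and −0.33. Between the stimulated cultures the 3 differences were small, at 0.00, 0.13 and 0.25.

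Rela encodes p65, the main partner in the canonical dimer. Its signal was 5.82, 6.83 and 9.40 in allogeneic, 5.74, 6.83 and 8.54 in anti-CD3/CD28, and 5.96, 6.99 and 8.55 in syngeneic replicates 1 to 3. The cultures lay close together in numbers 1 and 2, and in number 3 the allogeneic array alone was high, by 0.86 over anti-CD3/CD28 and by 0.85 over syngeneic culture. The anti-CD3/CD28 differences from syngeneic culture were −0.21, −0.15 and −0.01. Of the variance of Rela, 96.3% lay between numbers and 1.02% between cultures.

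Relb and Nfkb2 encode the partners of the noncanonical dimer, RelB and the p100 precursor of p52. Relb is also a reported miR-146a target. Relb signal was 5.06, 6.46 and 9.16 in allogeneic replicates 1 to 3, against 5.06, 5.70 and 7.03 in anti-CD3/CD28 replicates, and was 5.40, 6.27 and 8.70 in syngeneic replicates. The anti-CD3/CD28 array was lower than the syngeneic array in all 3 numbers, with differences of −0.34, −0.56 and −1.67. The mean difference was −0.86 ± 1.08 (SE), which is 1.81-fold lower, with an adjusted p of 1.00 in limma without the block and 0.729 with it. Allogeneic culture exceeded anti-CD3/CD28 culture by 0.00, 0.76 and 2.14, a mean of 0.96 ± 1.08 (SE) or 1.95-fold, and number 3 gave most of it. Allogeneic and syngeneic arrays differed by −0.34, 0.19 and 0.47. Within the same numbers the mean of 11 dendritic cell marker genes differed by −0.10, −1.08 and −1.92 between anti-CD3/CD28 and syngeneic culture and by 0.13, 0.52 and 1.97 between allogeneic and anti-CD3/CD28 culture, and its part in the Relb differences was not tested. In such bulk samples fewer cells of a type and less RNA per cell cannot be told apart.

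Nfkb2 followed a similar order in number 3. Its signal was 6.02, 7.53 and 10.28 in allogeneic, 5.74, 7.29 and 8.90 in anti-CD3/CD28, and 6.21, 7.29 and 9.75 in syngeneic replicates 1 to 3. Allogeneic culture was higher than anti-CD3/CD28 culture in each number, by 0.28, 0.24 and 1.38 (mean 0.63 ± 1.17 SE, 1.55-fold, adjusted p 0.928 in limma with the block). Anti-CD3/CD28 against syngeneic culture gave −0.47, 0.00 and −0.85. The second Nfkb2 probe set, of a type that can take up related transcripts, disagreed in number 3: it gave −1.53, −0.41 and 0.67 for anti-CD3/CD28 against syngeneic culture. For allogeneic against anti-CD3/CD28 culture it gave 0.22, 0.39 and −0.03, a mean of 0.19, so that the common sign of the brighter probe set was not seen there. After removal of each number's mean, Relb and Nfkb2 moved alike over the 9 arrays (Pearson's r 0.936, a description over arrays of the same samples).

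The 3 inhibitors mostly went in the same direction within each comparison. In anti-CD3/CD28 against syngeneic culture all 9 pairs of 3 genes and 3 numbers were lower, with a median of −0.65. For allogeneic against anti-CD3/CD28 culture 8 of 9 were higher, with a median of 0.48, and for allogeneic against syngeneic culture 8 of 9 were lower, with a median of −0.30. All 3 counts were the same with arrays centred on their medians and with quantile normalization. The comparisons share arrays, so these counts are not independent of each other. In anti-CD3/CD28 against syngeneic culture 10 of 12 subunit pairs and 8 of 9 adaptor and kinase pairs were lower too. For allogeneic against anti-CD3/CD28 culture 9 of 12 subunit pairs were higher, 3 equal and 0 lower. Of the adaptor and kinase pairs 4 of 9 were higher and 3 lower. For allogeneic against syngeneic culture 6 of 12 and 5 of 9 were lower. Over all genes 34.86% of pairs were lower, 36.47% higher and 28.67% equal in anti-CD3/CD28 against syngeneic culture. In allogeneic against anti-CD3/CD28 culture 38.13% were higher, 28.73% lower and 33.14% equal. In allogeneic against syngeneic culture 34.65% were lower, 39.87% higher and 25.47% equal. No inhibitor pair was equal, so the equal pairs make the shares of all genes smaller beside these counts.

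Nfkbia encodes IkappaBalpha, the inhibitor that is degraded and resynthesised when NF-kappaB is activated. Its signal was 12.23, 12.03 and 11.83 in allogeneic replicates 1 to 3, 12.01, 11.24 and 11.30 in anti-CD3/CD28 replicates, and 12.53, 11.90 and 12.10 in syngeneic replicates. The anti-CD3/CD28 array was the lowest of the 3 in every number. Group means were 11.52 ± 0.43 in anti-CD3/CD28 and 12.18 ± 0.32 in syngeneic culture (SD, n = 3 each), and the differences within numbers were −0.52, −0.65 and −0.79. The mean of −0.66 had an SE of 0.31 without the block and 0.12 with it, and is 1.58-fold lower, with an adjusted p in limma of 1.00, 0.677 with the fixed block and 0.0684 with the random block. Allogeneic culture was higher than anti-CD3/CD28 culture by 0.22, 0.79 and 0.53 (mean 0.51 ± 0.31 SE, 1.43-fold, adjusted p 0.928 with the block). Against syngeneic culture the allogeneic differences changed sign between numbers, at −0.30, 0.14 and −0.27.

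Nfkbia was measured by 5 probe sets. In anti-CD3/CD28 against syngeneic culture their mean differences ran from −0.98 to −0.45, and 14 of 15 differences within numbers were lower and 1 was equal. In allogeneic against anti-CD3/CD28 culture the means ran from 0.51 to 0.83, with 13 of 15 differences higher, 1 equal and 1 lower. Probe sets of a gene share the RNA of each array and are not replicates.

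Nfkbie encodes IkappaBepsilon, an inhibitor that holds mainly dimers with c-Rel or p65. Its brightest probe set is of a type that can match several transcripts, although the platform assigns it to this gene alone. Its signal was 9.04, 8.42 and 9.46 in allogeneic replicates 1 to 3, 8.97, 7.95 and 8.15 in anti-CD3/CD28 replicates, and 9.61, 8.77 and 10.04 in syngeneic replicates. The order within each number was the same, syngeneic highest and anti-CD3/CD28 lowest. The anti-CD3/CD28 differences from syngeneic culture were −0.64, −0.82 and −1.89, with a mean of −1.12 ± 0.56 (SE), or 2.17-fold lower. Its adjusted p in limma was 1.00, 0.684 with the fixed block and 0.102 with the random block.

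Nfkbie was also the only member that differed by over 0.2 in the same direction in all 3 numbers between allogeneic and syngeneic culture. The differences were −0.58, −0.34 and −0.58, with a mean of −0.50 ± 0.56 (SE) and an adjusted p in limma of 1.00, or 0.709 with the block. Beside this, the mean of 11 macrophage and monocyte marker genes was lower in allogeneic than in syngeneic culture, with differences of −1.33, −1.68 and −1.24. The median differences of these 11 genes were −0.34, −1.71 and −1.14. Their part in the Nfkbie difference was not tested. For Nfkbie, allogeneic exceeded anti-CD3/CD28 culture by 0.06, 0.48 and 1.31. The second probe set gave 0.00, −0.04 and −0.57 for allogeneic against syngeneic culture and did not meet the rule. It was lower in anti-CD3/CD28 than in syngeneic culture in each number too, but with differences of −0.05, −0.15 and −1.64, so that its mean of −0.61 rested on number 3.

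Tnfaip3 encodes A20, an enzyme that edits ubiquitin chains and ends signalling to NF-kappaB. Its signal was 9.25, 9.04 and 10.61 in allogeneic, 9.06, 9.48 and 10.003 in anti-CD3/CD28, and 9.37, 9.66 and 10.66 in syngeneic replicates 1 to 3. Anti-CD3/CD28 differences from syngeneic culture were −0.32, −0.19 and −0.66, a mean of −0.39 ± 0.56 (SE). Number 2 fell just short of the 0.2 used for a difference in all numbers. Allogeneic against anti-CD3/CD28 culture gave 0.20, −0.44 and 0.60, with no common sign. The second Tnfaip3 probe set, above the array median on 7 of 9 arrays, showed a mean difference of only −0.03 between anti-CD3/CD28 and syngeneic culture.

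**Figure D2:**
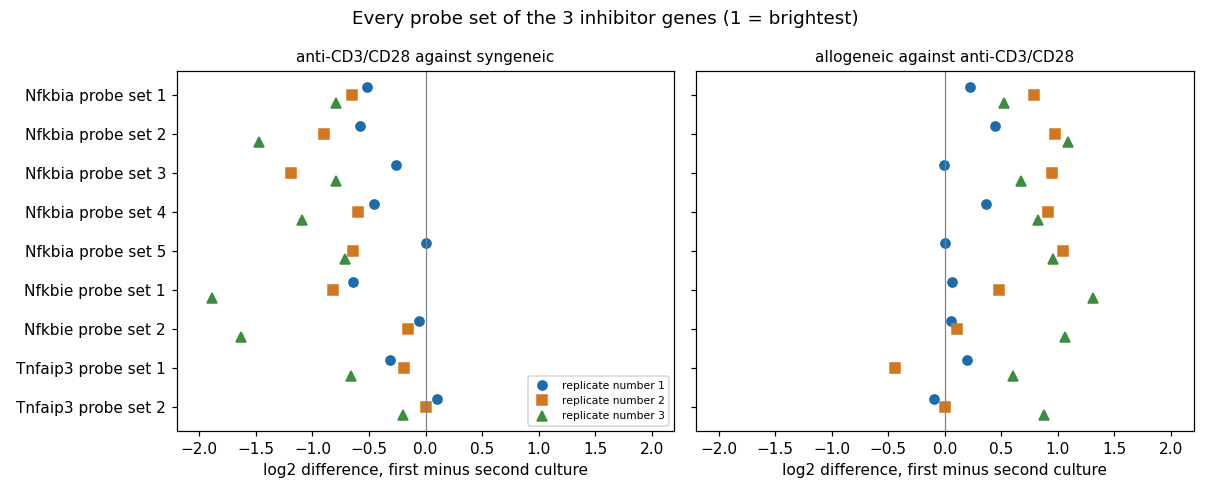
Log2 difference (x axis) between cultures within each replicate number for all 9 probe sets of the 3 inhibitor genes (rows, numbered from the brightest), for anti-CD3/CD28 against syngeneic culture (left) and allogeneic against anti-CD3/CD28 culture (right). The 5 Nfkbia probe sets have means from −0.98 to −0.45 at left and from 0.51 to 0.83 at right, and number 1 lies nearest to 0 at right for most of them.

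The adaptor and the 2 kinases act below innate and interleukin receptors, and all 3 are reported miR-146a targets. Traf6 encodes a ubiquitin ligase that joins receptors to the IkappaB kinases. Its signal was 7.28, 8.18 and 10.22 in allogeneic, 7.28, 7.27 and 9.47 in anti-CD3/CD28, and 7.30, 8.05 and 9.71 in syngeneic replicates 1 to 3. In numbers 2 and 3 the anti-CD3/CD28 array was the lowest, and in number 1 the cultures were within 0.02. Allogeneic against anti-CD3/CD28 culture gave 0.00, 0.91 and 0.74 (mean 0.55 ± 0.90 SE, 1.46-fold, adjusted p 0.928 in limma with the block). Anti-CD3/CD28 against syngeneic culture gave −0.02, −0.78 and −0.24. The second Traf6 probe set gave 0.07, 0.00 and −0.33 for anti-CD3/CD28 against syngeneic culture, and the third −0.22, −0.23 and −1.47. For allogeneic against anti-CD3/CD28 culture these gave 0.00, 0.00 and 1.11, and 0.14, 0.29 and 1.11. The number 2 difference of the brightest probe set was thus not seen in the second. Of the 5 Traf6 probe sets, the 2 dimmest were above the array median on 1 array and on none, and they carry little information.

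Irak1 encodes the kinase that hands the signal to TRAF6. Its signal lay in a narrow range, at 8.64, 8.93 and 9.22 in allogeneic, 8.68, 8.32 and 9.22 in anti-CD3/CD28, and 8.51, 8.96 and 9.48 in syngeneic replicates 1 to 3. Anti-CD3/CD28 differences from syngeneic culture were 0.17, −0.64 and −0.27, and allogeneic differences from syngeneic culture were 0.13, −0.04 and −0.27. Allogeneic against anti-CD3/CD28 culture gave −0.04, 0.60 and 0.00. The brightest Irak1 probe set is of a type that can take up related transcripts, and the second gave means of 0.02 for anti-CD3/CD28 and 0.06 for allogeneic against syngeneic culture.

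Irak2, a related kinase that sustains the signal, was dim and passed the array median on 8 of 9 arrays. Its signal was 4.60, 5.43 and 7.79 in allogeneic, 4.66, 5.73 and 5.94 in anti-CD3/CD28, and 4.68, 6.11 and 6.66 in syngeneic replicates 1 to 3. The allogeneic array of number 3 alone was high, 1.84 above anti-CD3/CD28 and 1.12 above syngeneic culture, while in number 2 it was the lowest of the 3. Anti-CD3/CD28 against syngeneic culture gave −0.02, −0.38 and −0.72. The 4 reported miR-146a targets Relb, Traf6, Irak1 and Irak2 had mean differences of 0.11, 0.20, −0.06 and 0.12 in allogeneic against syngeneic culture. In anti-CD3/CD28 against syngeneic culture all 4 means were lower, at −0.86, −0.35, −0.24 and −0.37, and in allogeneic against anti-CD3/CD28 culture all 4 were higher, at 0.96, 0.55, 0.19 and 0.49. All 12 lie inside their SE of 0.52 to 1.08 without the block, and the other 6 members had the same signs in the last 2 comparisons. With the block the SE was 0.40 for Relb, 0.22 for Traf6, 0.19 for Irak1 and 0.45 for Irak2. Relb and Traf6 exceeded it in the last 2 comparisons. Irak1 did so only in anti-CD3/CD28 against syngeneic culture, and Irak2 only in allogeneic against anti-CD3/CD28 culture. None of these differences was called.

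**Figure D3:**
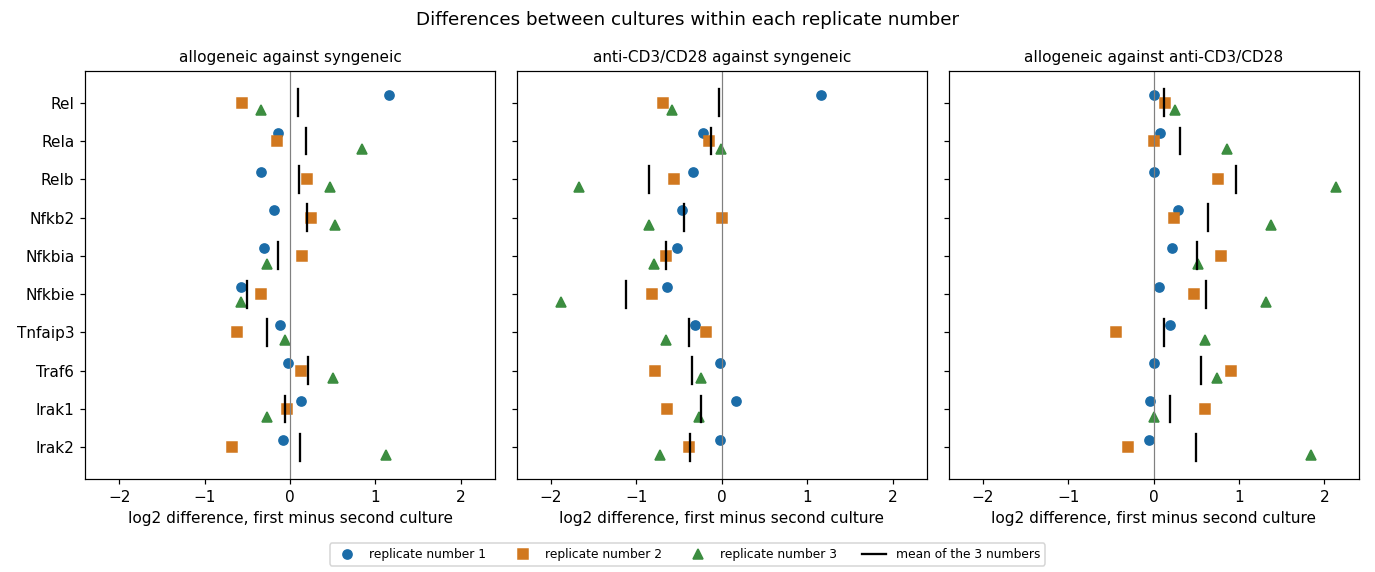
Log2 difference (x axis) between cultures within each replicate number for the 10 genes (rows), with vertical bars at the mean of the 3 numbers. In the middle panel, anti-CD3/CD28 against syngeneic culture, 27 of 30 points lie below 0. In the right panel, allogeneic against anti-CD3/CD28 culture, 21 of 30 lie above 0 and number 1 lies close to 0.

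The members can be counted against all genes. In anti-CD3/CD28 against syngeneic culture 27 of 30 pairs of gene and number were lower (90.0%), against 34.86% lower and 28.67% equal over all genes, and the median mean difference was −0.38 for the members and 0.00 for all genes. The mean was lower for all 10 members, although Rel turned to 0.08 with arrays centred on their medians and Rela to 0.01 with quantile normalization, and 24 and 25 of 30 pairs were lower under these scalings. Of the 10 members 3 were lower by over 0.2 in all 3 numbers (Relb, Nfkbia and Nfkbie) and 0 were higher, beside 3.86% of all genes lower and 2.4% higher. In numbers 2 and 3 alone 7 were lower by that rule (Rel, Relb, Nfkbia, Nfkbie, Traf6, Irak1 and Irak2), beside 9.68% of all genes.

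In allogeneic against anti-CD3/CD28 culture 21 of 30 pairs were higher (70.0%), 4 lower and 5 equal. Over all genes 38.13% were higher, 28.73% lower and 33.14% equal. The median mean difference was 0.50 for the members and 0.04 for all genes. The mean was higher for all 10 members, although Rel and Tnfaip3 turned to −0.02 with arrays centred on their medians. By the rule of over 0.2 in all numbers, 2 members were higher (Nfkb2 and Nfkbia) and 0 lower, beside 0.44% of all genes higher and 0.176% lower. In numbers 2 and 3 alone 5 were higher (Relb, Nfkb2, Nfkbia, Nfkbie and Traf6), beside 7.41% of all genes. There the second probe sets of Nfkb2 (0.39 and −0.03), Nfkbie (0.11 and 1.06) and Traf6 (0.00 and 1.11) did not meet the rule. The third of Traf6 (0.29 and 1.11) met it. This comparison and the one before it share the anti-CD3/CD28 arrays, and a low level there gives both patterns at once.

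In allogeneic against syngeneic culture 19 of 30 pairs were lower (63.33%) and 11 higher. Over all genes 34.65% of pairs were lower, 39.87% higher and 25.47% equal. The median mean differences were 0.10 for the members and 0.03 for all genes. Here 1 member was lower in all numbers (Nfkbie) and 0 were higher, beside 3.02% and 1.92% of all genes. Beside these shares a count of 1 in 10 is no result about the members.

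Among the brightest probe sets, culture took a larger part of the variance in the IkappaB genes than in the other members. Its share was 52.1% for Nfkbia and 48.7% for Nfkbie, against 0.219% (Rel) to 9.19% (Relb) in the others. For Nfkbia and Nfkbie the replicate number took 40.2% and 36.2%. Shares were not computed for the other probe sets, which need not follow. The dimmest Nfkbia probe set was equal in all cultures of number 1. Its syngeneic signal was 7.9959 in number 1 and 11.2172 in number 3. The second Nfkbie probe set differed between cultures mainly in number 3. For Nfkb2, Rela and Traf6 the number took over 93% (94.8%, 96.3% and 93.2%). Across the 9 arrays, with each number's mean removed, Nfkbia and Nfkbie had a Pearson's r of 0.876 and Relb and Nfkbie one of 0.854, while Rela and Irak1 had −0.145.

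Genes whose pattern over the 9 arrays was most like a member's were sought in the same way among 3164 genes with signals above the median gene and no equal values within a number. Nfkbie was most like Stx7 (r 0.996), a gene of vesicle fusion, and Dusp1 (r 0.994), a phosphatase of MAP kinases induced by stress. Dusp1 signal was 9.25, 8.82 and 10.03 in allogeneic, 9.20, 8.27 and 8.07 in anti-CD3/CD28, and 9.88, 9.44 and 10.65 in syngeneic replicates 1 to 3, the order seen for Nfkbie. Relb was most like Osgin2 (r 0.992) and Nmb (r 0.988), Nfkb2 most like Osgin2 (r 0.949) and Xpo1 (r 0.946), and Nfkbia most like Oas3 (r 0.985) and Selenow (r 0.976). Irak1 had the least close partner among the 9 members compared, Mkrn2 with r 0.917. These values rank the best of many genes over arrays that share samples and are descriptions only.

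Other genes of the pathway were read from lists in which, as for the members, limma called no gene in any comparison. Over all 18193 genes the mean was lower for 8592 and higher for 8832 in anti-CD3/CD28 against syngeneic culture. These counts were 7587 and 10185 in allogeneic against syngeneic culture, and 6375 and 10934 in allogeneic against anti-CD3/CD28 culture. Among 6 other NF-kappaB and IkappaB family genes, 4 were lower and 2 higher on average in anti-CD3/CD28 than in syngeneic culture (median −0.13), or 3 and 3 with arrays centred on their medians. In allogeneic against syngeneic culture 4 were higher (median 0.17). Bcl3, an IkappaB-like partner of p50 and p52, was lower in anti-CD3/CD28 culture, with differences of −1.02, −0.93 and −1.07 within numbers (mean −1.01 ± 0.92 SE). Nfkbiz, a nuclear IkappaB, gave −0.49, −0.68 and −0.20. Nfkbid, another nuclear IkappaB, went the other way, at 1.06, −0.09 and 1.04. The family was thus not lower as a whole.

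Of 9 genes of the IkappaB kinases and their upstream kinases, 8 were lower and 1 higher in anti-CD3/CD28 than in syngeneic culture (median −0.38). Over all genes 8592 of 18193 were lower. All 9 were lower in allogeneic than in syngeneic culture (median −0.17), or 8 of 9 with quantile normalization, beside 7587 of 18193 genes. Tbk1, a kinase of the IkappaB kinase family, averaged 8.45 ± 0.23 in anti-CD3/CD28 and 8.93 ± 0.25 in syngeneic culture (SD, n = 3 each). These groups did not overlap, as for 276 of the 18193 genes in the lower direction. The Tbk1 differences within numbers were uneven, at −0.26, −0.17 and −0.998. Tab2, which brings the kinase TAK1 to ubiquitin chains, gave −0.21, −0.34 and −0.76.

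Of 13 negative regulators, 9 were lower in anti-CD3/CD28 than in syngeneic culture (median −0.24), beside 8592 of 18193 genes. In allogeneic against anti-CD3/CD28 culture 11 were higher (median 0.16), beside 10934 of 18193 genes. With arrays centred on their medians 7 regulators were lower and 8 higher in these 2 comparisons. Tnip1, a partner of A20, gave −0.74, −0.57 and −1.07 for anti-CD3/CD28 against syngeneic culture (mean −0.79 ± 0.72 SE). Among 28 reported NF-kappaB target genes, 18 were lower and 10 higher in anti-CD3/CD28 than in syngeneic culture (median −0.14; 14 and 14 with arrays centred on their medians), 7 of them lower and 4 higher by over 0.2 in all numbers, beside 3.86% and 2.4% of all genes. Birc3, which blocks cell death, gave −0.73, −0.79 and −0.98. Icam1, an adhesion molecule, gave −0.76, −1.09 and −0.81. For both the anti-CD3/CD28 and syngeneic groups did not overlap, which held for 276 of the 18193 genes in the lower direction. Il2ra, the interleukin 2 receptor chain of activated T cells, was higher instead, by 0.69, 0.28 and 0.25 in anti-CD3/CD28 and by 0.87, 0.59 and 0.53 in allogeneic against syngeneic culture.

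Of 10 other reported miR-146a targets, 6 were lower and 4 higher in anti-CD3/CD28 than in syngeneic culture (median −0.11), or 4 and 6 with arrays centred on their medians. In allogeneic culture 7 were lower and 3 higher than in syngeneic culture (median −0.15). Cxcr4, a chemokine receptor, was lower in allogeneic than in syngeneic culture, with differences of −0.41, −0.75 and −0.57 (mean −0.58 ± 0.37 SE). Elavl1, which encodes an RNA-binding protein, was higher in anti-CD3/CD28 than in syngeneic culture by 0.53, 0.21 and 0.54.

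Markers of dendritic cells and macrophages differed between the same cultures. The mean log2 signal of 11 dendritic cell genes was 6.91 to 8.23 in allogeneic, 6.26 to 6.77 in anti-CD3/CD28 and 6.88 to 8.18 in syngeneic replicates. Its differences within numbers, given beside Relb, were widest in number 3, as were those of Relb, Nfkbie and Nfkb2. This held for all genes as well. Their SD between anti-CD3/CD28 and syngeneic arrays was 0.433, 0.493 and 0.754 in numbers 1 to 3. Between allogeneic and anti-CD3/CD28 arrays it was 0.103, 0.493 and 0.680. The wider differences of number 3 are thus not particular to these genes. On all 9 arrays 7 of the 11 genes were above the array median, while Cd209a and Xcr1 were above it on none. Fscn1, an actin-bundling protein of mature dendritic cells, had signals of 10.44, 9.46 and 12.16 in allogeneic, 9.97, 7.75 and 7.72 in anti-CD3/CD28, and 10.20, 10.48 and 11.59 in syngeneic replicates 1 to 3.

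For 11 macrophage and monocyte genes the mean was 5.15 to 6.01 in allogeneic, 4.26 to 5.93 in anti-CD3/CD28 and 6.48 to 7.70 in syngeneic replicates. Within numbers 1 to 3 this mean differed by −1.41, −1.77 and −2.52 between anti-CD3/CD28 and syngeneic culture. The median differences of these genes were −0.42, −1.39 and −2.34. Only 3 of the 11 were above the array median on all 3 allogeneic arrays, 3 on all anti-CD3/CD28 arrays and 5 on all syngeneic arrays. C1qa was above it on no array. Lyz2, a lysozyme of myeloid cells, had signals of 8.68, 9.04 and 9.44 in allogeneic, 8.23, 8.12 and 6.32 in anti-CD3/CD28, and 12.61, 10.87 and 11.44 in syngeneic replicates 1 to 3. The T cell gene means were 9.75 to 10.91, 10.33 to 11.28 and 9.63 to 10.96 in the same order of cultures. Within numbers 1 to 3 the T cell mean differed by −0.12, 0.71 and 0.39 between anti-CD3/CD28 and syngeneic culture and by 0.03, −0.58 and −0.37 between allogeneic and anti-CD3/CD28 culture. In numbers 2 and 3 it thus ran opposite to the dendritic cell mean. The means of 6 B cell genes were 6.27 to 7.86, 6.08 to 8.64 and 6.67 to 8.11. Those of 7 granulocyte genes were 4.64 to 6.26, 4.27 to 5.36 and 4.72 to 6.19. Within numbers the granulocyte mean differed by −0.05, −0.30 and −1.93 between anti-CD3/CD28 and syngeneic culture, widest in number 3 like the dendritic cell mean. The 5 stromal genes had means of 8.72, 8.29 and 10.49 in number 2, and of 4.04 to 4.43 in the other numbers. The part of other cells in the differences of the NF-kappaB genes was not tested.

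**Figure D4:**
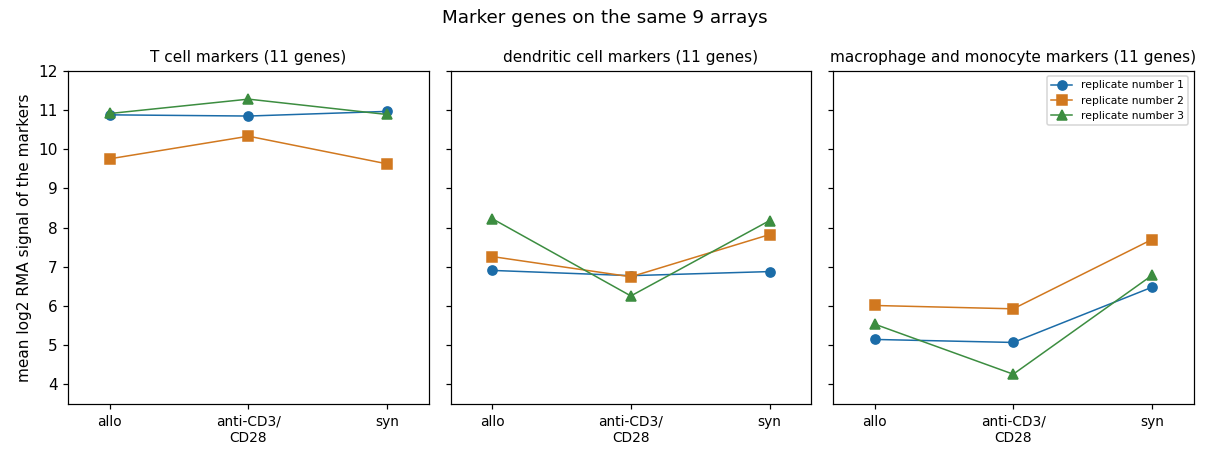
Mean log2 signal (y axis) of 11 T cell, 11 dendritic cell and 11 macrophage and monocyte marker genes in allogeneic (allo), anti-CD3/CD28 and syngeneic (syn) culture (x axis), 1 point per array and 1 line per replicate number. In numbers 2 and 3 the T cell mean is highest in anti-CD3/CD28 culture, while the dendritic cell mean is lowest there, in number 3 at 8.23, 6.26 and 8.18 from left to right.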

How the data were processed

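Signals are log2 values for 45101 probe sets on 9 arrays, deposited by the authors after RMA (robust multi-array average), per the submitters' processing notes. They were used as deposited. The software was not given in the sources used here. Array medians ran from 4.58 to 5.67. Control probe sets (64), probe sets of several genes (932) and those with no gene listed (9160) were left out. Symbols came from the platform annotation and were brought up to date by gene ID for 34741 probe sets. Where a gene had several probe sets, the one with the highest average signal stood for it.

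The test was limma 3.58.1 (R 4.3.3) with 1 mean per culture, an intensity trend and 1 shared estimate of spread, and p-values were adjusted by Benjamini-Hochberg over all 18193 genes. The numbers pair the arrays: deviations from group means correlated at 0.811 to 0.921 for the 9 pairs of the same number and at −0.597 to −0.165 for other pairs. The number was therefore also used as a block, fixed or random (duplicateCorrelation, correlation 0.932). The test was checked on simulated data.

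The members, gene lists and marker lists were chosen with earlier results of these data known. All members are named, with up to 4 genes from each other pathway list by the smallest p with the block, up to 4 bright genes of each marker list, and the 2 most similar genes of each member above the array median on every array; not all of these are described, and 1 pathway list is not reported here. Alternatives were leaving out dim genes (below the 40th percentile), quantile normalization, centring each array on its median, no intensity trend, the mean of a gene's probe sets, all probe sets fitted together, 2 groups per fit, and arrays or replicate numbers left out. Those that combine the block with another change were added after the data were seen. Promoter and microRNA sequences are RefSeq's on GRCm38.p6.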

Additional observations from a re-analysis of the deposited data

How the results depend on the processing

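No member passed the threshold in limma under any setting, with adjusted p from 0.0684 upward. Of the 30 member differences, 6 kept their direction in every setting: all 3 of Nfkbie and those of Nfkbia and Tnfaip3 in anti-CD3/CD28 against syngeneic culture and of Nfkbia in allogeneic against anti-CD3/CD28 culture. With arrays or numbers left out, Nfkbie ran from −0.85 to −0.21 in allogeneic against syngeneic, −1.47 to −0.73 in anti-CD3/CD28 against syngeneic and 0.27 to 0.92 in allogeneic against anti-CD3/CD28 culture. In the same way Nfkbia ran from −0.90 to −0.48 and Tnfaip3 from −0.65 to −0.0073 in anti-CD3/CD28 against syngeneic culture, and Nfkbia from 0.37 to 0.76 in allogeneic against anti-CD3/CD28 culture, so Tnfaip3 came close to 0. The other 24 turned at least once, each of them with an array or a number left out. A single array was left out without the block, so means over unequal sets of numbers were then compared. The numbers themselves differed widely, with Nfkb2 means of 5.99, 7.37 and 9.64 in numbers 1 to 3. The ranges therefore hold this spread as well, and the turns with the block and a number left out are given further on. With arrays or numbers left out, differences ran as follows for allogeneic against syngeneic culture: Rel −0.94 to 0.91, Rela −0.84 to 0.95, Relb −1.03 to 1.06, Nfkb2 −0.97 to 1.19, Nfkbia −0.28 to 0.035, Tnfaip3 −0.75 to 0.11, Traf6 −0.62 to 0.88, Irak1 −0.30 to 0.19, Irak2 −0.80 to 0.79. For anti-CD3/CD28 against syngeneic culture they ran: Rel −1.07 to 0.78, Rela −0.88 to 0.57, Relb −1.55 to 0.0974, Nfkb2 −1.24 to 0.56, Traf6 −1.08 to 0.33, Irak1 −0.48 to 0.0052, Irak2 −0.94 to 0.0507. For allogeneic against anti-CD3/CD28 culture they ran: Rel −0.48 to 0.67, Rela −0.71 to 1.08, Relb −0.17 to 1.88, Nfkb2 −0.53 to 1.60, Tnfaip3 −0.37 to 0.42, Traf6 −0.28 to 1.28, Irak1 −0.0194 to 0.43, Irak2 −0.43 to 1.16. Of the other settings, the mean of all probe sets turned Nfkb2 to −0.0189 and Irak1 to 0.0299 in allogeneic against syngeneic culture, and quantile normalization turned Irak2 to −0.0953 there and Rela to 0.0095 in anti-CD3/CD28 against syngeneic culture. Centring arrays on their medians turned Rel to 0.0762 there as well, and Rel to −0.0184 and Tnfaip3 to −0.0246 in allogeneic against anti-CD3/CD28 culture. These values were the same with the replicate block, and the causes were not tested. With the replicate block and a number left out, allogeneic against syngeneic culture gave −0.447 for Rel without number 1, and without number 3 −0.147 for Rela, −0.0718 for Relb, 0.049 for Irak1 and −0.379 for Irak2. Anti-CD3/CD28 against syngeneic culture gave 0.290 for Rel without number 2 and 0.236 without number 3. Allogeneic against anti-CD3/CD28 culture gave −0.0188 for Irak1 without number 2, and without number 3 −0.121 for Tnfaip3 and −0.180 for Irak2. Centring moved the median difference of all genes to 0.11 in anti-CD3/CD28 against syngeneic culture and to −0.11 in allogeneic against anti-CD3/CD28 culture.

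The replicate block called 0 genes in each comparison, as did the fit without it. The random replicate block called 1 gene in allogeneic against syngeneic and 30 in anti-CD3/CD28 against syngeneic culture, and centring called 1 in each, or 0 and 1 with the block. Of members over 0.2 in the same direction in all numbers, allogeneic against syngeneic culture had 1 higher without replicate 1, and its count of lower members was 0 with quantile normalization or the mean of all probe sets and 1 to 2 with a number left out. For anti-CD3/CD28 against syngeneic culture 3 to 7 were lower with a number left out. For allogeneic against anti-CD3/CD28 culture 1 was higher with quantile normalization or centring and 2 to 5 with a number left out. These 9 arrays, with many values equal within a number, limit the precision, and 4 of 30 member differences exceed 1 SE of the fit without the block, against 17 of 30 with it, 7 of them in anti-CD3/CD28 against syngeneic culture.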
